A study of Mus musculus with 12 samples.

Results

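Immunoglobulin gene segments and 3 partner genes of the B cell lineage were followed through 12 mouse liver transcriptomes. The members were chosen by annotation, as every gene whose biotype is an immunoglobulin constant (C), variable (V), diversity (D) or joining (J) segment, together with Jchain, Cd79a and Cd79b. They numbered 267 of 55487 genes in the table. The heavy chain locus on chromosome 12 gave 8 C, 113 V, 19 D and 4 J genes. The kappa light chain locus on chromosome 6 gave 1 C, 102 V and 5 J genes, and the lambda locus on chromosome 16 gave 4 C, 3 V and 5 J genes. Jchain lies on chromosome 5, Cd79a on chromosome 7 and Cd79b on chromosome 11.

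The series compares bulk liver RNA of male mice aged 16 to 18 months that carry floxed alleles of Foxo3, which encodes a forkhead transcription factor restrained by insulin signalling. Controls had the floxed alleles without Cre. Knockouts had the same alleles with Cre under the albumin promoter, which is active in hepatocytes, so the design is meant to leave Foxo3 intact in B cells. In which cells the alleles were deleted was not tested. Each genotype was sampled with food freely available (fed) and after an overnight fast (fasted), with 3 libraries in each of the 4 groups. The strain background is not given in the sources used here, nor is it stated that replicates were separate animals, so p-values measure the spread between these libraries.

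B cells assemble 1 V, D and J segment of the heavy chain and 1 V and J segment of a light chain, and join them to a constant gene that sets the antibody class. Naive B cells carry IgM and IgD on their surface with the signalling partners Cd79a and Cd79b, and plasma cells secrete antibody in amounts that make constant gene RNA very abundant per cell. The J chain links IgM into pentamers and IgA into dimers. The liver receives IgA from the gut through the portal circulation and holds few plasma cells itself, while blood left in the tissue carries B cells. In bulk tissue, fewer cells of a type and less RNA per cell cannot be told apart.

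Library totals ranged from 17520058 to 22414976 counts, and 3 counts in 1 library, taken as the floor of detection, corresponded to 0.134 to 0.171 CPM, the count scaled to library size. No label names a batch, and library numbers run in blocks by group, so cohort and group cannot be told apart. The gene-level count of Foxo3 was 706 to 1111 in control libraries and 927 to 1192 in libraries labelled knockout; a gene-level count does not show the deleted part. Hepatocyte markers dominated every library, with a summed level of 57604 to 108071 CPM over 6 genes. Fasted control replicate 3 stood apart for the members. Their summed level there was 1971 CPM, against 37.7 to 362 CPM in the other 11 libraries. The members' main results that rest on this library are given with and without it, while marker lists were tested with all 12 libraries only.

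Of the 267 members, 68 had 0 counts in all 12 libraries, 199 were detected and 108 reached 10 counts in all. The 13 constant genes held 67582 counts, the 218 V genes 3776, the 14 J genes 77 and the 19 D genes 1. Only 23 members passed the filter on low counts and could be tested, namely 11 constant genes, 9 V genes, Jchain, Cd79a and Cd79b. The others are described by their counts. Rows left out by the rule, chiefly 158 V pseudogenes, held 5 counts in all libraries together.

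Ighm (chr12:113418558-113422730, minus strand, GRCm38), the constant gene of IgM, was the heavy chain gene with the most RNA in 11 of 12 livers and was lower after fasting. In fed controls it stood at 61.6, 199 and 79.5 CPM in replicates 1, 2 and 3, and in fasted controls at 38.9, 47.0 and 50.9 CPM. In fed knockouts it stood at 79.8, 78.8 and 78.9 CPM, and in fasted knockouts at 17.1, 19.5 and 30.8 CPM. Every fed library lay above every fasted library, and the 3 fasted knockouts were the lowest of the 12. Among all 15862 genes tested, 2.34% had all 6 fed above all 6 fasted libraries. The share with the 3 fasted knockouts lowest was not counted. The summed level of 5 red blood cell genes overlapped between feeding states, at 164 to 250 CPM in fed and 162 to 233 CPM in fasted controls and at 195 to 236 CPM in fed and 171 to 279 CPM in fasted knockouts. Alas2, the erythroid enzyme of haem synthesis, gave 72.8 to 134 CPM of that sum. The globin gene Hbb-bs did not overlap in knockouts, at 34.1 to 39.6 CPM in fed and 42.8 to 82.4 CPM in fasted libraries, where Ighm was lower. The part of blood in the result was not tested.

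In edgeR's quasi-likelihood test, the log2 fold change of Ighm on fasting was -1.82 (SE 0.399, adjusted p = 0.0455) in knockouts. In controls it was -1.31 (SE 0.389, adjusted p = 0.0967), which did not pass the threshold of 0.05. Averaged over both genotypes, a contrast added after the values of Ighm were seen, Ighm fell by 1.57 on the log2 scale (SE 0.278, adjusted p = 0.00709). The fall on fasting was not shown to differ between genotypes, with an interaction of -0.51 (SE 0.545, adjusted p = 0.909). The averaged call held in each of the 12 fits that leave out 1 library (adjusted p 0.000671 to 0.0226), whereas the call in knockouts alone held in 2 of them. Without fed control replicate 2, the highest library, the log2 fold change in controls was -0.63 (adjusted p = 0.152) and that of the average -1.22 (adjusted p = 0.000671).

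**Figure D1:**
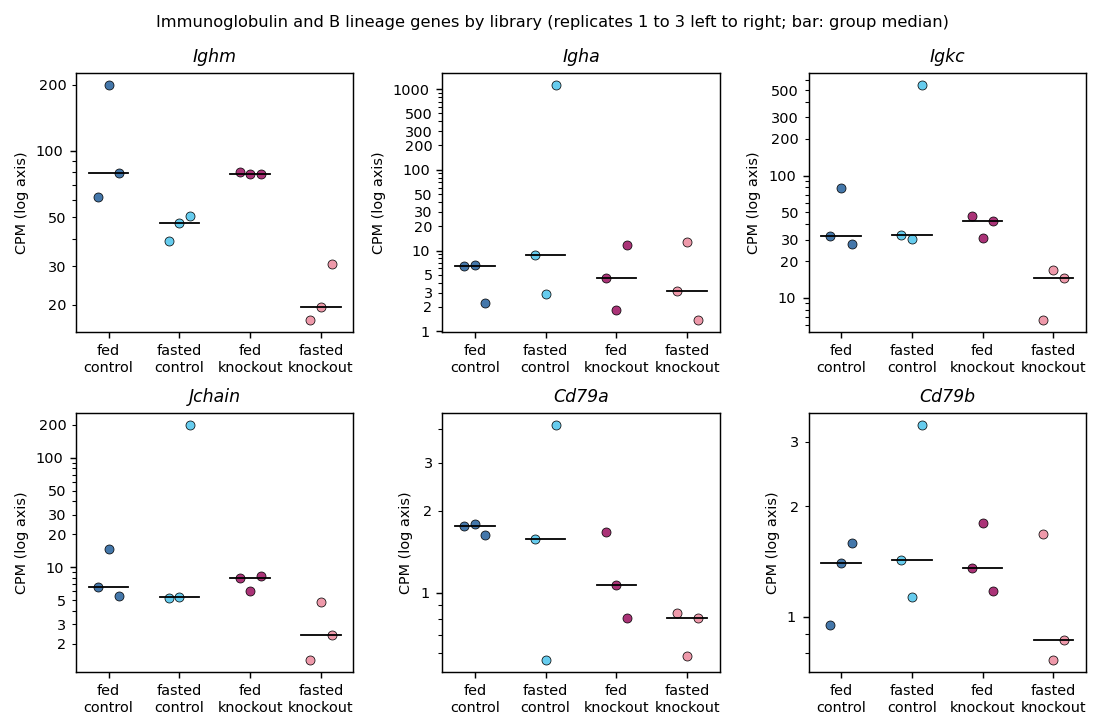
Level of 6 members in each library as TMM-scaled CPM on a log axis. Points are libraries, coloured by group, with replicates 1 to 3 from left to right, and the bar is the group median. Ighm is below every fed library in all 6 fasted libraries, while Igha, Igkc and Jchain are led by fasted control replicate 3.

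Ighm was the 1 member called in knockouts on fasting, where 2.48% of all tested genes were called in either direction and 1.12% as lower. In controls 0 of 23 members were called by edgeR against 4.14% of all tested genes, with 3 members under an unadjusted p of 0.05, as were 19.4% of all tested genes. There DESeq2 called Ighm (adjusted p = 0.00388) and limma on log2(TPM + 1) called Igkv1-135, a kappa V gene that had not passed the count filter. Over both genotypes, Ighm was the 1 member called, against 9.07% of all tested genes in either direction and 4.52% as lower. DESeq2 called 3 members in that average, adding the kappa V genes Igkv4-59 and Igkv3-2. The median log2 fold change of the 23 members on fasting was 0.81 in controls, with 15 higher, and -0.89 in knockouts, with 21 lower, where the medians over all tested genes were -0.003 and -0.006. Without fasted control replicate 3 the direction in controls turned: 26 members could be tested, 15 were lower and the median was -0.25. In knockouts 24 of 26 were lower in that fit, with a median of -1.05.

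Ighd (chr12:113406604-113416324, minus strand), the IgD gene that mature naive B cells transcribe together with Ighm, showed no such order. Its levels were 2.28, 2.85 and 2.09 CPM in fed controls and 3.26, 1.13 and 1.86 CPM in fasted controls. They were 1.78, 1.69 and 1.29 CPM in fed knockouts and 1.90, 1.12 and 1.90 CPM in fasted knockouts. Fed and fasted libraries overlapped in both genotypes, and the averaged log2 fold change on fasting was -0.08 (SE 0.254, adjusted p = 0.886). Counts of Ighm per count of Ighd were 44.9, 46.7 and 61.0 in fed and 8.98, 17.4 and 16.2 in fasted knockouts, which did not overlap. They were 27.0, 69.7 and 38.1 in fed and 11.9, 41.5 and 27.4 in fasted controls, which did.

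The 4 IgG constant genes were low and uneven between livers of the same group. Ighg2b (chr12:113302965-113307933) had 2.75, 11.6 and 0.227 CPM in fed controls and 8.60, 1.70 and 15.1 CPM in fasted controls. It had 6.59, 3.43 and 5.22 CPM in fed knockouts and 0.531, 4.63 and 1.32 CPM in fasted knockouts. It led the IgG genes in 8 of 12 libraries and tied with Ighg2c at 23 counts each in fasted knockout replicate 3, whereas Ighg2c led in fasted control replicate 2 with 13.5 CPM, the highest level of that gene in any library. Ighg2c (chr12:113285325-113288932) ran from 2.31 to 4.13 CPM in fed and from 0.310 to 1.32 CPM in fasted knockouts, groups that did not overlap, with a log2 fold change of -1.85 (SE 1.21, adjusted p = 0.548).

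Ighg1 (chr12:113325240-113330523) was the 1 tested member with all fed knockouts (6.12, 2.92 and 1.35 CPM) above all fed controls (1.14, 0.514 and 0 CPM). Among all tested genes 6.30% had that order, and the log2 fold change of 2.65 (SE 1.20, adjusted p = 0.806) did not pass. Ighg3 ran from 0 to 3.06 CPM and Ighe, the IgE gene, from 0 to 0.115 CPM, which is under the floor in each library. The IgG genes resemble each other, so counts may be split between them.

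Igha (chr12:113254830-113260236, minus strand), the IgA constant gene, separated 1 liver from all others. It reached 1122 CPM in fasted control replicate 3, while replicates 1 and 2 of that group stood at 8.85 and 2.89 CPM. Fed controls stood at 6.41, 6.55 and 2.22 CPM. Fed knockouts stood at 4.60, 1.86 and 11.8 CPM and fasted knockouts at 3.14, 12.7 and 1.38 CPM. Apart from the 1 library, every group overlapped every other, and the highest level in the other 11 libraries was 88.6-fold lower. The log2 fold change on fasting in controls was 6.22 (SE 2.17, adjusted p = 0.162) with this library and 0.22 (adjusted p = 0.938) without it.

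**Figure D2:**
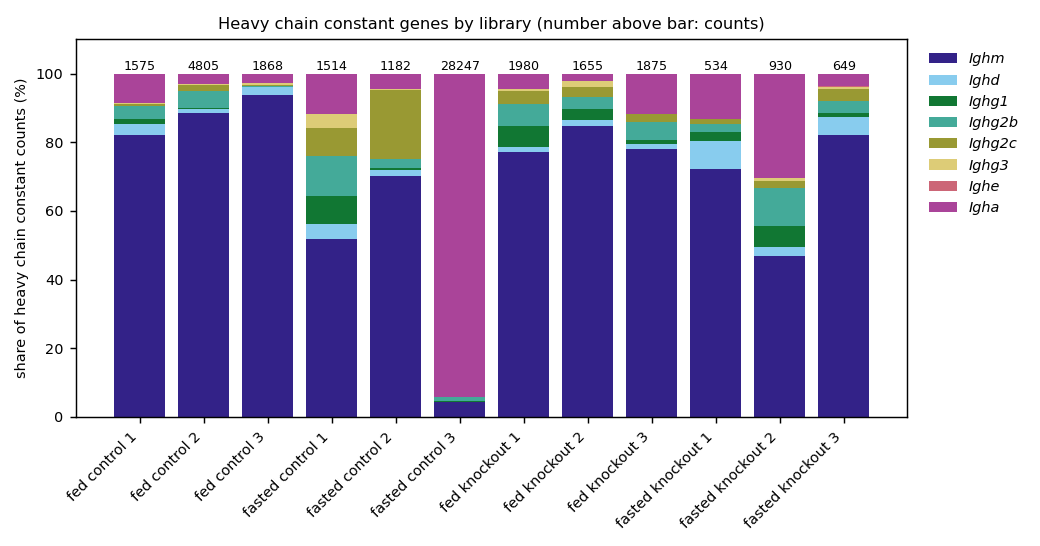
Share of each heavy chain constant gene in the heavy chain constant counts of each library, in percent, with the number of counts above each bar. Ighm forms the largest share in 11 libraries, and Igha forms 94.2% in fasted control replicate 3.

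As a share of heavy chain constant counts, Ighm made up 82.3%, 88.4% and 93.8% in fed controls and 51.9%, 70.3% and 4.27% in fasted controls. It made up 77.1%, 84.7% and 78.1% in fed knockouts and 72.3%, 46.8% and 82.3% in fasted knockouts. All fed shares lay above those of fasted controls, while the range in fasted knockouts reached into that of fed knockouts. Exact Clopper-Pearson 95% intervals, which cover counting error only, were 68.3% to 76.0% for the 72.3% of fasted knockout replicate 1 and 79.1% to 85.1% for the 82.3% of replicate 3. These 2 intervals did not overlap.

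The genes that held the rest of the heavy chain constant counts differed from liver to liver. A share can rise because other genes are lower. IgG genes together made up 31.9% (95% interval 29.6% to 34.3%) of heavy chain constant counts in fasted control replicate 1 and 23.6% (21.2% to 26.1%) in replicate 2, the highest shares of any library. Igha made up 30.3% (27.4% to 33.4%) in fasted knockout replicate 2 and 1.99% to 13.3% in the libraries other than that one and fasted control replicate 3. The smallest IgG share, 1.12% (0.697% to 1.71%), was in fed control replicate 3. Ighd made up 8.05% (5.89% to 10.7%) in fasted knockout replicate 1, where the CPM of Ighm was lowest, against at most 5.08% elsewhere. Its level there was 1.90 CPM, within the 1.12 to 3.26 CPM of all libraries. Likewise, Igha stood at 12.7 CPM in fasted knockout replicate 2 and at 11.8 CPM in fed knockout replicate 3, where its share was 11.7%.

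Igkc (chr6:70726435-70726966, plus strand), the constant gene of the kappa light chain, had the highest level per transcript length of any member, with a median of 148 TPM, the length-scaled unit, over the 12 libraries, beside 73.4 TPM for Ighm, 6.13 TPM for Jchain and 4.87 TPM for Igha. Its CPM values were 31.8, 79.8 and 27.7 in fed controls and 32.6, 30.2 and 551 in fasted controls. They were 46.7, 31.0 and 42.2 in fed knockouts and 6.59, 17.0 and 14.6 in fasted knockouts. Fasted control replicate 3 was the highest library, and all 3 fasted knockouts lay below the other 9. How many of all tested genes had the fasted knockouts lowest was not counted.

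Jchain (chr5:88519809-88527891, minus strand) followed the same order of groups. It had 6.55, 14.7 and 5.49 CPM in fed controls and 5.24, 5.37 and 199 CPM in fasted controls. It had 7.94, 6.07 and 8.29 CPM in fed knockouts and 1.42, 4.76 and 2.42 CPM in fasted knockouts. As with Igkc, the fasted knockouts lay below the other 9 libraries, an order not counted over all tested genes, and 1 fasted control lay far above them.

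Neither gene passed in any comparison. On fasting in knockouts, the log2 fold change was -1.65 (SE 1.09, adjusted p = 0.554) for Igkc and -1.37 (SE 1.44, adjusted p = 0.745) for Jchain. In controls both estimates took the direction of 1 library: 2.14 (adjusted p = 0.315) for Igkc and 2.97 (adjusted p = 0.254) for Jchain with fasted control replicate 3, and -0.57 (adjusted p = 0.622) and -0.75 (adjusted p = 0.485) without it. Averaged over genotypes without that library, they were -1.11 (adjusted p = 0.0970) and -1.06 (adjusted p = 0.0929), and neither passed.

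The lambda constant genes were minor. Iglc1 (chr16:19061618-19062071) had a median of 0.718 CPM, Iglc2 (chr16:19198396-19200351) ran from 0.221 to 2.24 CPM and Iglc3 (chr16:19065230-19065681) from 0.157 to 1.56 CPM, and Iglc4 had 1 library above 0. These genes are close copies of each other, so their separate counts are uncertain. Together they formed 1.02% (95% interval 0.852% to 1.20%) of light chain constant counts in fasted control replicate 3 and 2.62% to 12.1% in the other 11 libraries. The 3 fasted knockouts had 6.99%, 9.70% and 12.1%, the highest shares, with 272, 165 and 431 light chain constant counts behind them.

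Cd79a (chr7:24897381-24902197) and Cd79b (chr11:106311341-106314762), the signalling chains of the B cell receptor, stayed near 1 or 2 CPM in most livers. Cd79a had 1.76, 1.78 and 1.63 CPM in fed controls and 1.58, 0.566 and 4.13 CPM in fasted controls. It had 1.67, 1.07 and 0.807 CPM in fed knockouts and 0.840, 0.584 and 0.806 CPM in fasted knockouts. Fasted control replicate 3 was again the highest library, by 2.33-fold over the next. All fed controls lay above all fasted knockouts, an order not counted over all tested genes, and the other pairs of groups overlapped.

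Cd79b likewise was highest in fasted control replicate 3, at 3.33 CPM, with 0.764 to 1.80 CPM elsewhere. On fasting, averaged over genotypes, the log2 fold change was -0.18 (SE 0.381, adjusted p = 0.813) for Cd79a and 0.11 (SE 0.310, adjusted p = 0.871) for Cd79b. Without fasted control replicate 3 it was -0.66 (adjusted p = 0.211) for Cd79a and -0.20 (adjusted p = 0.702) for Cd79b. The standard errors leave room for a change in either direction.

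Between genotypes, no member was called in any setting run. In edgeR's test 0 of 23 members passed for knockout against control in the fed state, where 0% of all tested genes were called, with 1 member under an unadjusted p of 0.05, as were 6.12% of all tested genes. In the fasted state 0 passed against 0.0315% of all tested genes, with 8 members lower in knockouts at an unadjusted p under 0.05, as were 4.36% of all tested genes. Averaged over feeding states 0 passed against 0.0126%, with 5 members lower at an unadjusted p under 0.05, beside 3.67% of all tested genes. For the interaction 0 passed against 0.0063%, with 4 members lower at an unadjusted p under 0.05, beside 3.34% of all tested genes. DESeq2, limma-voom and limma on log2 TPM called 0 members in these 4 comparisons as well.

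In the fasted state 22 of 23 members had lower estimates in knockouts, with a median of -1.58 beside -0.013 over all tested genes. Without fasted control replicate 3, 23 of 26 tested members were lower, with a median of -1.11, and 3 were lower at an unadjusted p under 0.05. The members share cells and transcripts. In the same comparison 16 of 17 B cell markers had lower estimates (median -0.84), with the members Cd79a and Cd79b among them. So did 9 of 9 markers of T and NK cells (-1.26) and 8 of 8 of macrophages (-0.46). Of 5 red blood cell genes 4 had higher estimates (0.25). The part of these cells in the members' result was not tested. The estimates of Igkc, Jchain and Igha moved towards 0 without the 1 library. For Igkc the log2 fold change was -4.01 (adjusted p = 0.506) with and -1.31 (adjusted p = 0.751) without it, and for Jchain -4.60 (adjusted p = 0.521) and -0.89 (adjusted p = 0.818). For Igha it was -6.02 (adjusted p = 0.525) and -0.03 (adjusted p = 0.997). Ighm moved little, from -1.03 (SE 0.393, adjusted p = 0.527) to -0.94 (adjusted p = 0.777). Ighg2c had 0.338 CPM in that library, below the 6.08 and 13.5 CPM of fasted control replicates 1 and 2.

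All 3 fasted controls lay above all 3 fasted knockouts for 5 of 23 members, Ighm, Igkc, Jchain, Ighv3-6 and Igkv3-2, where 7.2% of all tested genes had that order. All 3 fed knockouts lay above all 3 fasted knockouts for 6 of 23, Ighm, Igkc, Jchain, Ighg2c, Igkv1-117 and Ighv1-26, against 11.8% of all tested genes. In controls the order fed above fasted held for Ighm alone, against 10.9%, and fed controls lay above fed knockouts for Ighd alone, against 5.99%. No member had fasted libraries above fed ones, an order that 11.5% of tested genes showed in controls and 11.5% in knockouts, and none had fasted knockouts above fasted controls, an order of 6.82% of tested genes.

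V gene counts show which V segments were counted in each library, and they may not name all antibodies of its cells. They summed to between 2.65 CPM, in fasted knockout replicate 1, and 35.5 CPM, in fed control replicate 2. Between 37 and 114 of the 218 V genes had a count in a given library, and 6 had one in all 12: the heavy chain gene Ighv1-53, the lambda gene Iglv1 and the kappa genes Igkv1-117, Igkv10-96, Igkv6-15 and Igkv3-2. A further 26 had counts in 1 library only. In the median library the 5 leading genes were needed to reach 50% of heavy chain V counts.

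Single livers were led by single V genes. In fed control replicate 3, Igkv1-88 held 152 of 219 kappa V counts (69.4%, 95% interval 62.8% to 75.4%) and Ighv4-1 held 76 of 109 heavy chain V counts (69.7%, 60.2% to 78.2%). This library held 97.4% of all Igkv1-88 counts in the series and 89.4% of all Ighv4-1 counts. Elsewhere Igkv1-88 had at most 2 counts and Ighv4-1 at most 3, so both genes were at or under the floor in the other 11 libraries. Markers of other cell types were high in the same library, with a summed level of 19.7 CPM over 12 T and NK cell genes (4.13 to 15.7 CPM elsewhere) and 133 CPM of Spp1, the osteopontin gene (17.6 to 48.3 CPM elsewhere). The bile duct genes Krt19, Epcam and Sox9 were within the range of the other libraries, while Krt7 and Cftr were highest there, at 0.908 and 0.363 CPM. Their part in the V gene result was not tested.

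Fed knockout replicate 3 had a second such pair. There Ighv3-6 held 57 of 118 heavy chain V counts (48.3%, 39.0% to 57.7%) and Igkv5-39 held 90 of 216 kappa V counts (41.7%, 35.0% to 48.5%). Igkv5-39 also led fasted knockout replicate 3, with 34 of 86 kappa V counts (39.5%, 29.2% to 50.7%), where Ighv3-6 had 0 counts. In fed control replicate 2 and fed knockout replicate 1 the leading kappa gene was Igkv3-2, with 139 of 499 (27.9%) and 66 of 264 counts (25.0%). No leading V gene recurred as the leader in all 3 libraries of a group for heavy or kappa chains.

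**Figure D3:**
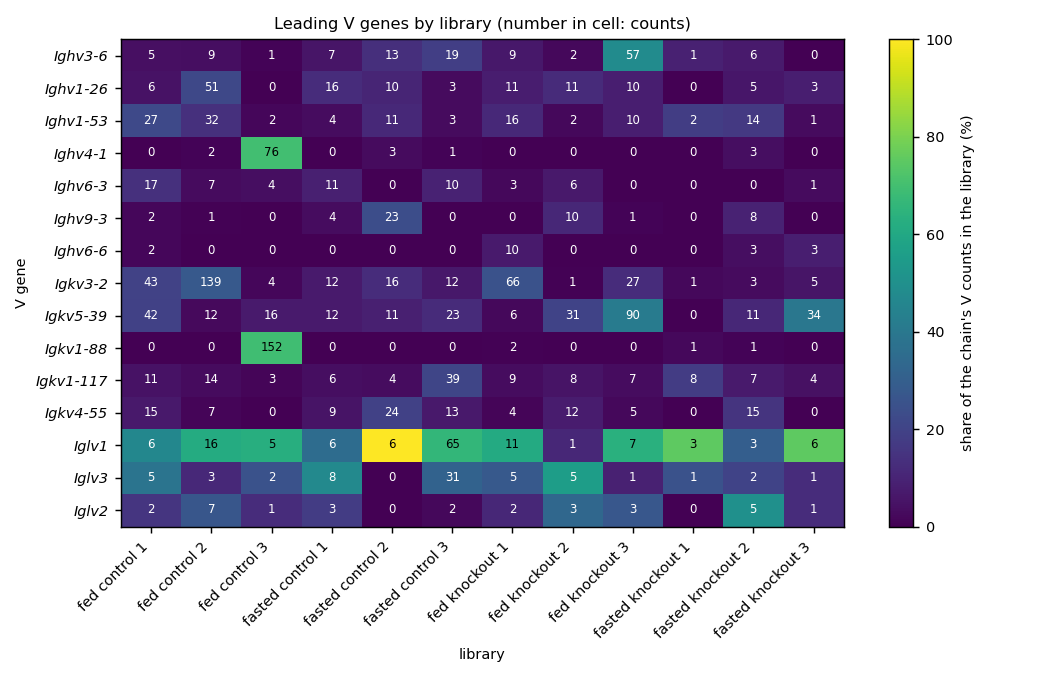
Share of each chain's V counts held by the leading V genes, in percent by colour, for each library, with the counts in the cells. The pairs Ighv4-1 with Igkv1-88 in fed control replicate 3 and Ighv3-6 with Igkv5-39 in fed knockout replicate 3 stand out, and the lambda shares rest on 4 to 98 counts.

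The germline sequences of these 5 genes are printed because the counts depend on how distinct they are. Each is the coding part of the main V exon in GENCODE M21 on GRCm38, read 5′ to 3′ on the gene's own strand, with up to 300 bases from the 3′ end where the exon is longer. Capitals mark bases inside a stretch of 50 bases that occurs unchanged in a transcript of another gene. Igkv1-88 (chr6:68862265-68862564, minus strand), Igkv5-39 (chr6:69900424-69900710, minus strand) and Igkv3-2 (chr6:70698768-70699067, plus strand) are kappa genes. Ighv4-1 (chr12:113948282-113948581, minus strand) and Ighv3-6 (chr12:114288152-114288451, minus strand) are heavy chain genes.
Igkv1-88: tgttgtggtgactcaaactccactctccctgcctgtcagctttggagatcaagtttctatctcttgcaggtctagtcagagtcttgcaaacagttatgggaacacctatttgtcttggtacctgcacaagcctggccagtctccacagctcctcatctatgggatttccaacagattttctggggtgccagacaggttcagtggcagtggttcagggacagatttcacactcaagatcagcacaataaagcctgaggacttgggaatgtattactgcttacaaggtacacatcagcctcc
Igkv5-39: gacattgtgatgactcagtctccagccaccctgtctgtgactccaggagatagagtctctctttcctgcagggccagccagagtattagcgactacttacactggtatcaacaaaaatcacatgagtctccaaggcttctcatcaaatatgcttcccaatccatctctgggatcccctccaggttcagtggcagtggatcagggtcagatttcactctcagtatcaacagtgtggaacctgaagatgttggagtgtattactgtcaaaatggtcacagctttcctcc
Igkv3-2: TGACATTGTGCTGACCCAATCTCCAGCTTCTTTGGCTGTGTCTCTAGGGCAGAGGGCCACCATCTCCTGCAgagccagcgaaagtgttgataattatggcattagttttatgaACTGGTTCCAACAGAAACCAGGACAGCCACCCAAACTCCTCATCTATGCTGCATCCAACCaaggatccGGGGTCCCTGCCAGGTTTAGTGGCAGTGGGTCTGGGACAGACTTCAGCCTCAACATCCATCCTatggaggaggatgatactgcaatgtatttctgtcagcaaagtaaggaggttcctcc
Ighv4-1: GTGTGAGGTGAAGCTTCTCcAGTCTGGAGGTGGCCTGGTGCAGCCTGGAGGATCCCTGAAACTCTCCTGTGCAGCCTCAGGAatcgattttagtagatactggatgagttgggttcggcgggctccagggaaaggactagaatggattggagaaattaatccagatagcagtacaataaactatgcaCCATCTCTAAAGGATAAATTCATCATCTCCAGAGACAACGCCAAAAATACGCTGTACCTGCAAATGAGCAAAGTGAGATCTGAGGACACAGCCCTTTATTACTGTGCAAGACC
Ighv3-6: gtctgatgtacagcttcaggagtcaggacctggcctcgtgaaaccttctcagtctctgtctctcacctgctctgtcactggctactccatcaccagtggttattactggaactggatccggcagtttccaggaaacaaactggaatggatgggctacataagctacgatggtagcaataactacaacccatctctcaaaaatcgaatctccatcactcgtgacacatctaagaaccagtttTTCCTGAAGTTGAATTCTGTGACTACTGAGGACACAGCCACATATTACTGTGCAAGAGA

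Igkv1-88 and Igkv5-39 are wholly in lower case: 0% of the 50-base windows in their transcripts occur in another gene. Their exons are 63.9% identical over 316 aligned columns, while Igkv1-88 and Igkv1-117 of the same family are 84.3% identical. Ighv3-6 shares 3.32% of its windows, all at the capitalised end of the exon, and Igkv3-2 shares 21.3%. Ighv4-1 shares 29.9% of its windows with 1 gene, Ighv4-2, and its lower-case middle is its own. As background, antibody genes of activated B cells acquire mutations, so their RNA can differ from these germline letters.

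Other V genes were less distinct. Of 218 V genes, 45 shared no 50-base window with another gene, 35 shared over 50% of their windows and 2 shared all of them, and the median share was 23.1%. Ighv1-26 and Ighv1-53, which led heavy chain V counts in 7 libraries between them, shared 49.0% and 57.6% and were 87.5% identical to each other, so their separate counts are uncertain. Among the 35 genes sharing over 50%, 31.4% had 0 counts in all libraries, beside 19.1% of the other 183. With windows of 75 bases, 8 genes shared over 50% and 82 shared none. The read length is not given in the sources used here.

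Kappa V counts kept step with constant counts in 11 livers and not in the other. Kappa V counts per 100 Igkc counts were 32.4, 29.2 and 35.9 in fed controls and 25.6 and 23.5 in fasted control replicates 1 and 2. They were 29.6, 27.9 and 27.6 in fed knockouts and 30.2, 26.1 and 34.0 in fasted knockouts. In fasted control replicate 3 the value was 1.42, from 185 V counts beside 13056 Igkc counts. Its 551 CPM of Igkc thus came with kappa V counts within the range of other livers, while the 11 others held ratios between 23.5 and 35.9 in every group.

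The heavy chain showed the same split. V counts per 100 constant counts were 2.06 to 9.14 in 11 libraries and 0.365 in fasted control replicate 3, where 103 V counts stood beside 28247 constant counts. The lowest of the 11, fasted knockout replicate 1, had 11 V counts. For lambda the ratio in fasted control replicate 3 was 73.1, the second highest of the 12 libraries, of which the lowest had 19.2, with Iglv1 at 65 counts against at most 16 elsewhere. All V genes together formed 0.826% of member counts in that library and 7.03% to 12.4% in the others.

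**Figure D4:**
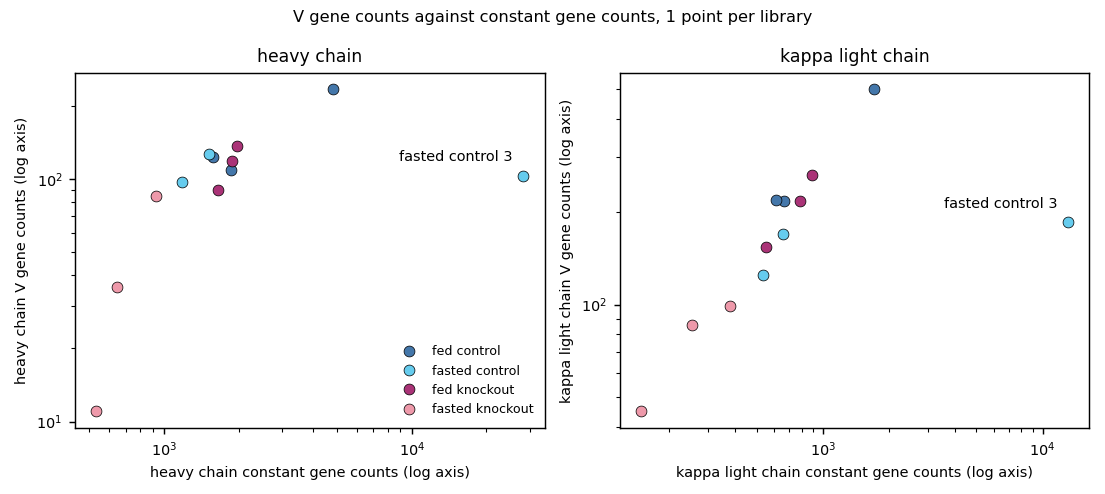
V gene counts against constant gene counts of the heavy chain (left) and kappa chain (right), both axes logarithmic, with 1 point per library coloured by group. In 11 libraries V counts rise with constant counts, and fasted control replicate 3 lies far to the right at V counts like those of other livers.

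The same library also had less kappa RNA per J chain RNA, with 2.77 Igkc counts per Jchain count against 3.58 to 6.22 elsewhere. Its leading V genes, Ighv3-6 with 19 of 103 counts (18.4%, 11.5% to 27.3%) and Igkv1-117 with 39 of 185 (21.1%, 15.4% to 27.7%), held shares within the range of other livers.

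D and J segments were almost unmeasured. Of the 19 D genes only Ighd1-1 had a count, 1 in all libraries. The J genes with the most counts were Igkj2 with 14, Igkj5 with 13 and Ighj4 with 12 over the 12 libraries. These segments are very short, and 78 counts are too few to compare groups.

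Markers of B cells and plasma cells were set beside the members. In fasted control replicate 3, 9 of 18 B cell markers and 8 of 15 plasma cell markers had their highest level of the 12 libraries. These counts are not independent of the members, since they include Cd79a and Cd79b as B cell markers and Jchain as a plasma cell marker. Also highest there were 6 of 17 genes for B cell survival and homing and 3 of 7 for germinal centres and class switching. The same held for 3 of 12 T and NK cell genes and 0 of 8 macrophage genes. The share of all tested genes highest in fasted control replicate 3 was not counted. The B cell surface gene Ms4a1 (CD20) reached 4.94 CPM there, against at most 1.33 CPM elsewhere. Pou2af1, a coactivator of immunoglobulin genes, reached 9.20 CPM against at most 1.45, and Irf4, a regulator of plasma cell fate, 4.89 CPM against at most 1.23. Derl3, of the degradation machinery of the endoplasmic reticulum, reached 8.27 CPM against at most 5.06.

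Tnfrsf17, the plasma cell receptor BCMA, was also highest there, at 0.633 CPM against at most 0.108 CPM elsewhere, as were Creld2 at 35.8 CPM (at most 21.4 elsewhere), Tent5c at 28.6 CPM (at most 22.1) and Slamf7. Mzb1, a chaperone of antibody secretion, was not, with 0.0422 CPM there and 0 to 0.198 CPM over all livers. Xbp1, Txndc5 and Sdc1 were above 100 CPM in every library and are also transcribed by hepatocytes. They hold much of the summed level of the list, 551 to 819 CPM in 11 libraries and 923 CPM in the other. The member Jchain gave 199 CPM of the 923 CPM in fasted control replicate 3 and at most 14.7 CPM elsewhere. Summed T and NK cell markers stood at 15.7 CPM in that library, within the 4.13 to 19.7 CPM of the others, and macrophage markers at 437 CPM, within 279 to 664 CPM. The summed level of 11 gut epithelium genes was highest in fasted control replicate 3, at 156 CPM, against 45.4 to 135 CPM in the other 11 libraries. Only 2 of these 11 genes passed the count filter, and Lgals4 alone gave 44.6 CPM of the 156 CPM. The part of gut genes in the members' levels was not tested. Of that list Cdx1 and Cdx2 were at 0 in all libraries. So were the pancreatic genes Prss1 and Amy2a5 and the recombinase genes Rag1 and Rag2 of B cell precursors. Of the same lists, the lectin gene Lgals4 was highest in fasted control replicate 3, at 44.6 CPM, and rose on fasting by 1.98 on the log2 scale (adjusted p = 1.76e-04) in controls and 1.41 (adjusted p = 0.00255) in knockouts. Fabp2 ran from 38.7 to 117 CPM, and Cela1 fell by 1.09 on the log2 scale (adjusted p = 0.0372) on fasting in controls.

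**Figure D5:**
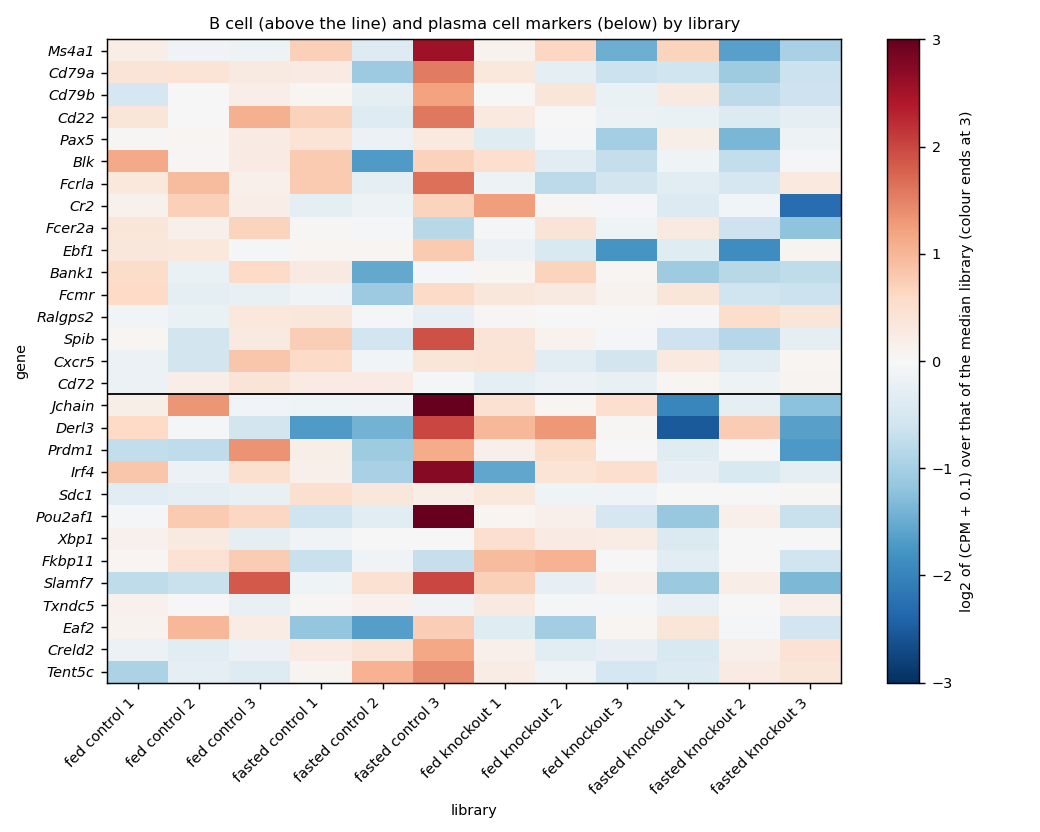
Level of B cell markers (above the line) and plasma cell markers (below) that passed the count filter, save 1 not shown, in each library, as log2 of CPM + 0.1 relative to the median library. Red is above and blue below the median, and colours end at 3; the column of fasted control replicate 3 holds most of the strong red.

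Across groups, 0 of 17 tested B cell markers passed in any of the 7 comparisons run with edgeR. On fasting averaged over genotypes 1 of them was under an unadjusted p of 0.05, and the median log2 fold change was 0.11. The medians were 0.16 in controls and -0.31 in knockouts. Between genotypes in the fasted state, 6 of 17 were lower in knockouts at an unadjusted p under 0.05, as were 4.36% of all tested genes. That comparison includes fasted control replicate 3, where 9 of 18 markers of the list were highest, and was not run for the list without it. The summed level of the B cell list was 47.9 to 62.6 CPM in fed controls, 44.2 to 67.0 in fasted controls, 42.4 to 48.0 in fed knockouts and 46.4 to 49.6 in fasted knockouts. Of that sum, Ralgps2 gave 16.8 to 29.1 CPM and Cd72 gave 10.1 to 16.2 CPM, so it says little of the other markers.

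Of 13 tested plasma cell markers, Sdc1 rose by 0.63 (SE 0.13, adjusted p = 0.0166) and Tent5c, an RNA-stabilising polymerase, by 1.46 (SE 0.34, adjusted p = 0.0383) on the log2 scale on fasting in controls, 2 calls where 4.14% of all tested genes were called. Fkbp11, a folding enzyme of secretory cells, fell by 0.99 (SE 0.22, adjusted p = 0.0137) in the average over genotypes, against 9.07% of all tested genes. With fasted control replicate 3 included, the list's median was 0.63 in controls, with 10 of 13 higher, -0.43 in knockouts, with 10 of 13 lower, and -0.02 in the average. Sdc1 stood at 206 to 366 CPM and is abundant in hepatocytes.

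Among genes of antibody transport, Pigr, the receptor that carries IgA and IgM into bile, did not pass in any comparison. It ran from 1196 to 1777 CPM in fed and from 1878 to 2459 CPM in fasted libraries, which did not overlap. How many tested genes had all 6 fasted above all 6 fed libraries was not counted, while the reverse order held for 2.34%. Within 1 genotype, a looser condition, fasted libraries lay above fed ones for 11.5% of all tested genes in controls and 11.5% in knockouts. Fcgrt, the neonatal Fc receptor that spares IgG from degradation, rose by 0.33 on the log2 scale (SE 0.083, adjusted p = 0.0280) on fasting averaged over genotypes, the 1 call among 10 tested genes of that list, beside the 9.07% of all tested genes. Of 9 tested genes for B cell survival and homing, the chemokine Cxcl12 rose by 0.38 (SE 0.11, adjusted p = 0.0451) in the same average.

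Genes outside the rule were compared with the members in 2 ways. The 10 tested genes highest in fasted control replicate 3 relative to every other library included Slpi, Serpina3c, Pou2af1, Irf4, Ms4a1, Zbtb16, Sspo, Lat2 and Il4i1, of which Slpi, a secreted protease inhibitor, reached 29.7 CPM against at most 2.22. By rank over the 12 libraries, the gene most like Jchain was Tdg (Spearman rho 0.951) and the gene most like Cd79a was Trim11 (0.923), with the B cell gene Cd22 also among the 6 most like Cd79a (0.860). These coefficients were picked as the highest among all tested genes over 12 libraries and serve as a description.

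Promoters could be examined for few members. RefSeq promoter sequences on GRCm38.p6, from 250 bases before to 50 after the start, matched Jchain and Cd79a and no immunoglobulin segment. The octamer ATGCAAAT or its reverse complement ATTTGCAT, known from V gene promoters, was in 1.74% of 32851 promoters and in neither of those 2.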

How the data were processed

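Per the labels' protocols, poly(A) RNA of frozen liver went into directional libraries. The submitters' processing notes name Trimmomatic 0.38, HISAT2 2.1.0 and featureCounts 1.6.3 with genome build mm10. Neither the strand setting nor the handling of reads that match several genes is stated there. Both deposited tables list the same genes, 1 in raw counts and 1 in TPM. Member positions equal GENCODE M21 for 267 of 267 genes.

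Counts were tested with the quasi-likelihood test of edgeR 4.0.16 (2-sided, TMM factors, robust dispersions, filterByExpr). All 12 libraries entered 1 fit with a mean per group, giving 6 contrasts and 1 added later. Benjamini-Hochberg adjustment ran over 15862 genes, with a threshold of 0.05. CPM values are TMM-scaled, and errors are SE. The scripts were tested on simulated counts. Shares carry exact 95% intervals. PCR reads are not independent molecules.

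Alternatives were RLE factors, other filters, limma-voom, limma on log2 TPM, DESeq2 1.42.0, a fit of the 2 compared groups, a replicate block, and libraries left out. Named were constant genes with 10 counts in a library, leading V genes, called members, genes of the marker lists, and the genes ranked highest by likeness. The members and lists were chosen with earlier results of these data known. Values of 1 B cell marker are not reported here.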

Additional observations from a re-analysis of the deposited data

How the results depend on the processing

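Groups of 3 libraries and few counts per V gene limit every statement here. Leaving out 1 library kept the members' call counts in 71 of 84 fits and single genes' direction and call in 330 of 360, and the other settings kept 58 of 67 and 252 of 279. TPM in place of counts kept all 12 composition shares, meaning that each group mean moved by less than the standard deviation of its 3 libraries. In fasted controls Igha shares ran from 4.31% to 94.2%, so the check could hardly fail there. The cause was not tested for any change below.

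For fasting in knockouts, 0 members passed with no filter, with both control libraries numbered 3 left out, and with the replicate block. Ighm stood at -1.81 (adjusted p = 0.123), -1.82 (0.0734) and -1.85 (0.0529) there. For fasting in controls 1 member passed with DESeq2 (Ighm at -1.32) and 1 with limma on log2(TPM + 1) or log2(TPM + 0.1), and for the average over genotypes 3, 2 and 2.

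Log2 fold changes that changed sign did not pass. In limma-voom, log2(TPM + 1) and log2(TPM + 0.1), Cd79a on fasting in controls was -0.03, -0.03 and -0.16. In the same order, the average over genotypes was -0.41, -0.38 and -0.39 for Igkc and -0.13, -0.05 and -0.19 for Jchain. With log2(TPM + 0.1), Cd79b in that average was -0.01 and Igha for knockout against control in the fed state 0.00. Same-numbered libraries did not deviate together (correlations -0.284 to 0.184), and the labels state no pairing. Correlations over all genes cannot exclude a pairing that moves few genes. The replicate block gave Igha 0.62 on fasting in knockouts and -0.44 between fed genotypes, and Igkc -0.19 in the average. Without both control libraries numbered 3, fasting in controls gave -0.84 for Igkc, -1.01 for Jchain, -0.14 for Igha and -0.70 for Cd79a. That setting gave -0.09 for Igha between fed genotypes, and in the average -1.25 for Igkc, -1.19 for Jchain, -0.11 for Igha and -0.13 for Cd79b.

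Over fits without 1 library, the call count ran from 0 to 1 for fasting in each genotype and from 1 to 3 for the average. On fasting in controls the range was -0.57 to 2.78 for Igkc, -0.75 to 3.54 for Jchain, -1.61 to -0.63 for Ighm, -0.66 to 0.73 for Cd79a and -0.03 to 0.86 for Cd79b, and in knockouts -2.11 to -1.65 for Ighm and -1.39 to 0.85 for Igha. In the average it was -1.11 to 0.57 for Igkc, -1.06 to 1.09 for Jchain, -0.66 to 0.03 for Cd79a and -0.20 to 0.24 for Cd79b. Between fed genotypes it was -0.49 to 0.43 for Igkc, -0.53 to 0.31 for Jchain, -0.81 to 0.17 for Ighm, -0.65 to 0.69 for Igha and -0.05 to 0.28 for Cd79b.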
